A study of Mus musculus with 2 samples.

Results

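The immediate-early AP-1 and Nr4a genes described here are Fos, Fosb, Jun, Junb, Jund, Atf3, Egr1, Nr4a1, Nr4a2 and Nr4a3. They were taken by symbol from the list of measured genes, and all 10 were present among its 31053 genes. Immediate-early genes are transcribed within minutes of a stimulus, before any new protein is made, because the factors that switch them on already sit in the cell. Fos and Jun proteins pair through a leucine zipper into the transcription factor AP-1, Atf3 is a related zipper protein that often represses, and Egr1 is a zinc finger factor induced by the same kinases. The Nr4a receptors are nuclear receptors with no known natural ligand, so their activity is set largely by how much of them is made. In immune cells they are known as early targets of antigen receptor and calcium signalling, and Nr4a1 is needed for the patrolling kind of monocyte. Immediate-early genes are also known to be switched on while a tissue is being dissociated, and a level measured after a sort can hold both.

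The data were single-cell RNA profiles of live CD45+ cells, those with the leucocyte surface protein CD45, sorted from subcutaneous tumours of B16, a mouse melanoma cell line. The hosts were C57BL/6 mice aged 8 weeks, and all of them carried Mettl3 fl/fl alleles. WT mice were Mettl3 fl/fl Lyz2 +/+. KO mice were Mettl3 fl/fl Lyz2 cre/+, in which Cre recombinase made from the Lyz2 locus removes part of Mettl3, the gene of the main enzyme that writes m6A on RNA, in macrophages, monocytes and granulocytes. The study asked how loss of this enzyme in myeloid cells changes the cells of the tumour. For each genotype, cells of several mice were pooled into 1 library. The spread between mice could therefore not be measured, no test between genotypes was possible, and genotype and library cannot be told apart. Intervals below are exact 95% intervals, Poisson for summed counts and Clopper-Pearson for shares, and they cover counting error only.

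After filtering, 5661 cells labelled WT and 8157 labelled KO remained, with a median of 4354 and 3740 unique molecular identifiers (UMIs) per cell. Cells were put into classes by marker genes that include none of the 10 genes, and a class is called X-like for that reason. Cells with markers of 2 lineages made up 13.7% labelled WT and 9.10% labelled KO, and cells past no gate 15.3% and 16.4%. Both were kept out of the classes, and 13 barcode sequences occurred in both libraries. Ptprc, which encodes CD45, had a UMI in 56.7% or more of the cells of every class but the melanoma-like one, where the share was 22.7% labelled WT and 15.6% labelled KO. Mettl3 was measured in macrophage-like cells at 10.2 (158 UMIs, WT) and 10.6 (186 UMIs, KO) UMIs per 1000000 UMIs of all genes in those cells (CPM), a log2 ratio of 0.05 (−0.27 to 0.36). Counts from the 3′ end do not show whether an internal part is missing, so this neither bears out nor contradicts the label. Lyz2, whose locus holds the Cre in 1 allele, was at a log2 ratio of −1.17 in macrophage-like and −1.37 in monocyte-like cells. It was also lower in classes not known to use Lyz2, at −1.05 in T-like, −1.32 in NK-like, −1.71 in B-like and −1.17 in melanoma-like cells, from far lower levels.

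All 10 are protein-coding genes. In GENCODE release M21 on GRCm38, Fos lies at chr12:85473890-85477273 on the plus strand, Fosb at chr7:19302696-19310051 on the minus strand and Atf3 at chr1:191170296-191218039 on the minus strand. Jun is at chr4:95049034-95052222 on the minus strand. Junb (chr8:84974484-84978718, minus) and Jund (chr8:70698949-70700616, plus) share a chromosome. Nr4a1 is at chr15:101254269-101274795 (plus), Nr4a2 at chr2:57106830-57124003 (minus), and Nr4a3 at chr4:48045153-48086447 (plus).

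Promoters of these genes are known for cyclic AMP response elements, the binding site of CREB, a factor that calcium and cyclic AMP signals activate. The core of that element, TGACG on either strand (CGTCA on the other), was searched in the 250 bases before each start in the RefSeq promoters, which matched 9 of the 10 genes and not Egr1. RefSeq gives 1 start per gene, and it is not always the end of the GENCODE span above. The RefSeq starts of Nr4a1, Atf3 and Nr4a3 lie inside that span, that of Jund lies upstream of it, those of Fosb and Junb differ by less than the length of the window, and those of Fos, Jun and Nr4a2 are the same. The 3 Nr4a promoters and that of Fos are shown because they held the most matches. The runs are from RefSeq on GRCm38.p6, read 5′ to 3′ on the gene's strand and end at the base before the RefSeq start, or, for Nr4a3, before the first GENCODE exon base. Capitals mark the core.
Fos: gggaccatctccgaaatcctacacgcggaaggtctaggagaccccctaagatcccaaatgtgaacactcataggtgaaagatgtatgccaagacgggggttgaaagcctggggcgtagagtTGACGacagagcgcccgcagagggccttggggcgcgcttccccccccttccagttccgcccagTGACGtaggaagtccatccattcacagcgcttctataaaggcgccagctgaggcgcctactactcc
Nr4a1: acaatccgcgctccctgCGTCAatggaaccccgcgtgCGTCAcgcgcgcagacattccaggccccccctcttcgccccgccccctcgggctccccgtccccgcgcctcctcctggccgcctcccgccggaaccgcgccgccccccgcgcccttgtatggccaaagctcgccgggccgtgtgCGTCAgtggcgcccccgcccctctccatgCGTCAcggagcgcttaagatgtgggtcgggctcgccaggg
Nr4a2: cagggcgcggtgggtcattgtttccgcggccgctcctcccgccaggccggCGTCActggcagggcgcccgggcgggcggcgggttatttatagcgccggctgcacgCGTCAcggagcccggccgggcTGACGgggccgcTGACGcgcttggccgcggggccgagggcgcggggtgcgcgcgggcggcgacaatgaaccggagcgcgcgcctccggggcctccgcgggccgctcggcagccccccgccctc
Nr4a3: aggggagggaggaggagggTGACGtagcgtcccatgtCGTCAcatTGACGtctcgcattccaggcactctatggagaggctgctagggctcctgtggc

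The Fos run is chr12:85473640-85473889 on the plus strand, and its 2 cores lie 129 and 66 bases before the start. The Nr4a1 run, chr15:101266596-101266845 on the plus strand, holds 4 cores, at 233, 213, 69 and 40 bases. That of Nr4a2, chr2:57124004-57124253 on the minus strand, also holds 4, at 200, 144, 123 and 111 bases. The Nr4a3 run is chr4:48045055-48045152 on the plus strand and holds 3 cores, at 231, 213 and 205 bases, with another at 147 bases beyond the stretch shown. Fosb, Junb and Atf3 had 1 core each, and Jun and Jund had none in the window before the RefSeq start. At least 1 core was found in 7 of the 9 promoters, against 17.8% of all 32851 promoters of the table, and at least 4 in 3 of the 9, against 0.137%. The matches describe letters and not bound sites.

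Each of Fos, Fosb, Jun, Junb and Jund was highest in granulocyte-like, pDC-like or B-like cells and lowest in melanoma-like cells. Atf3 was highest in granulocyte-like cells too, but lowest in B-like cells. The Nr4a genes went to different classes, Nr4a1 to monocyte-like cells, Nr4a2 to T-like cells and Nr4a3 to mature DC-like cells. For Nr4a2 the highest class depended on how the level was measured, as given below. A level here is the CPM of a gene in a class, in the 11 classes with at least 50 cells in each library. The highest class is that of the mean of both libraries. It differed between them for Fosb, with B-like cells on top labelled KO, and for Jund, with granulocyte-like cells on top labelled WT. Levels were alike in both libraries, with Pearson correlations of log2(CPM + 1) between them of 0.813 (Nr4a2) to 0.996 (Junb) over the 11 classes. Those points share the libraries, so the correlations carry no p.

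**Figure D1:**
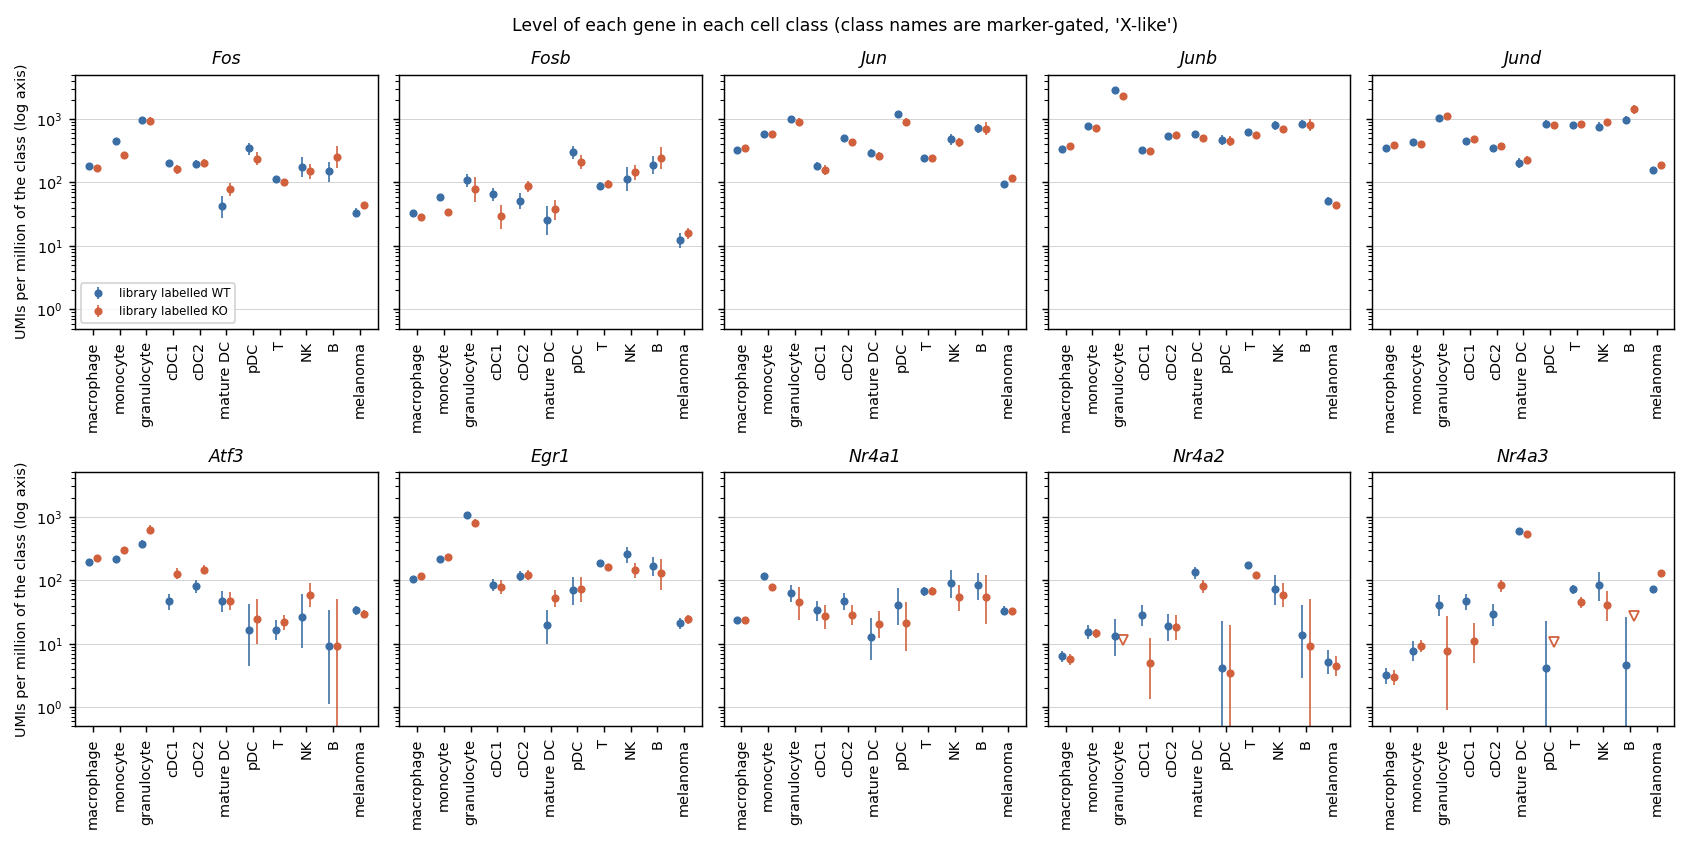
Level of each of the 10 genes in 11 cell classes, in CPM on a log axis, with the exact 95% Poisson interval. Blue is the library labelled WT and orange the library labelled KO, and an open triangle marks the limit that a count of 0 allows. Junb reaches 2897 and 2336 CPM in granulocyte-like cells, and Nr4a3 stands at 592 and 529 CPM in mature DC-like cells but near 3 CPM in macrophage-like cells.

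Fos, which binds DNA only when paired with a Jun protein, was highest in granulocyte-like cells, at 954 CPM (885–1027) labelled WT and 938 (825–1063) labelled KO. Monocyte-like cells followed at 449 (428–470) and 270 (259–281), and pDC-like cells at 343 and 238. Macrophage-like cells stood at 184 (177–191) and 171 (165–177), in the middle of the order. At the low end stood T-like (113 and 102), mature DC-like (42.0 and 78.6) and melanoma-like cells (33.3 and 43.5). The mean of the 2 libraries was 24.6-fold higher in the highest than in the lowest class. In 3 of the 10 steps down the order the ranges over the libraries did not overlap, and neighbours from monocyte-like cells down through pDC-like, B-like, cDC2-like, cDC1-like and macrophage-like to NK-like cells overlapped. Mature DC-like and melanoma-like cells overlapped as well.

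Fosb, a close relative of Fos that also pairs with Jun proteins, had another order. It led in pDC-like cells, at 302 (237–379) and 214 (163–274) CPM, and in B-like cells, at 191 (137–259) and 247 (163–359). The granulocyte-like cells that held most Fos had 108 and 79.8. Fosb was therefore a small part of the Fos and Fosb UMIs in granulocyte-like cells (10.2% and 7.84%) and close to an equal part in pDC-like cells (46.8% and 47.3%), T-like cells (43.9% and 48.5%) and B-like cells (56.2% and 49.1%). UMIs at the 3′ end count molecules whatever their length, though capture may differ between genes.

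Junb, a Jun protein with a weaker activating region, showed the widest range of the Jun genes. Its level was 2897 (2776–3022) and 2336 (2155–2528) CPM in granulocyte-like cells and 51.1 and 44.4 in melanoma-like cells, a 54.8-fold difference of the means. B-like (842 and 795), NK-like (790 and 696) and monocyte-like cells (786 and 729) came next, and macrophage-like cells stood at 338 and 372. Junb took 58.7% and 54.0% of the Jun family UMIs in granulocyte-like cells but 19.1% and 20.7% in pDC-like cells.

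Jun, the founding AP-1 subunit, was highest in pDC-like cells at 1176 (1044–1320) and 904 (797–1021) CPM, with granulocyte-like cells at 1015 and 896. Those ranges overlapped, while 8 of the 10 steps in the order of Jun did not. It was at 588 and 571 in monocyte-like cells, 323 and 343 in macrophage-like cells, with T-like cells at 244 and 245. Melanoma-like cells again came last, at 95.5 and 119.

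Jund, the Jun gene known to be made steadily rather than on stimulation, had the narrowest range of the AP-1 genes, 6.84-fold from the highest to the lowest class. It reached 972 (845–1113) and 1417 (1203–1659) CPM in B-like cells, 1021 and 1094 in granulocyte-like cells, and T-like cells had 806 and 843. Jund was the largest share of the Jun family in T-like cells (48.2% and 51.3%), cDC1-like cells (46.6% and 50.8%) and melanoma-like cells (52.1% and 53.8%). The 3 Jun genes were near equal in macrophage-like cells, at 32.0%, 33.4% and 34.6% labelled WT for Jun, Junb and Jund and 31.3%, 33.8% and 34.9% labelled KO.

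Atf3, induced by stress and by inflammatory signals, was a myeloid transcript in these tumours. Its level was 376 (334–423) and 627 (535–730) CPM in granulocyte-like cells, 216 (202–231) and 301 (290–313) in monocyte-like cells and 193 (186–200) and 220 (213–227) in macrophage-like cells. In B-like cells it had 2 and 1 UMIs in all, and in T-like cells 16.7 and 21.8 CPM. Its range over the classes was 54.4-fold. Egr1 also peaked in granulocyte-like cells, at 1048 (976–1125) and 794 (690–909), and was lowest in melanoma-like cells, at 21.0 and 24.3. Unlike Atf3 it was well detected in lymphocytes, at 185 and 163 CPM in T-like cells and 167 and 128 in B-like cells.

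Nr4a1, which encodes Nur77, was highest in monocyte-like cells, at 119 (108–130) and 79.5 (73.9–85.5) CPM. NK-like (89.0 and 54.2), T-like (66.6 and 68.2) and B-like cells (83.7 and 54.9) followed, each overlapping with its neighbour in the order, and macrophage-like cells had 23.4 and 24.0. It was the main Nr4a gene by UMIs in monocyte-like cells (83.7% and 77.0% of the family) and macrophage-like cells (71.0% and 73.5%). Within the monocyte-like cells it was concentrated in those with a UMI of Ace or Adgre4, 2 genes of patrolling monocytes chosen after earlier results were known. There Nr4a1 was at 262 (223–305) CPM in 138 cells labelled WT and 146 (128–166) in 401 labelled KO, against 92.5 and 65.5 in the other monocyte-like cells.

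Nr4a2, which encodes Nurr1, was at 175 (158–195) and 121 (107–135) CPM in T-like cells and 133 (105–165) and 79.8 (62.2–101) in mature DC-like cells, and the ranges of those 2 classes overlapped. Mature DC-like cells were the highest for Nr4a2 on the mean of per-cell values, at 134 and 70.1 CPM. They were also the highest in cells thinned to 1000 UMIs (178 and 67.6 CPM) and on UMIs per cell (0.804 and 0.467). Nr4a2 was low in macrophage-like cells (6.40 and 5.68 CPM) and in pDC-like cells (1 UMI in each library). Among T-like cells it stood at 230 (206–256) and 169 (150–190) in those with CD8 transcripts and at 13.2 (3 UMIs) and 10.5 (4 UMIs) in those with CD4. Nr4a3, which encodes Nor1 and is a known gene of migrating dendritic cells, was at 592 (533–656) and 529 (482–579) in mature DC-like cells, the dendritic cells that carry Ccr7. By the mean of both libraries the next highest were melanoma-like cells at 73.8 (66.0–82.3) and 131 (122–140), and macrophage-like cells were at 3.17 (49 UMIs) and 2.95 (52 UMIs). Labelled WT, NK-like cells, with 16 UMIs of Nr4a3, stood above the melanoma-like cells. Cells thinned to 1000 UMIs held a Nr4a3 UMI in 37.6% and 39.2% of mature DC-like cells and in 0 of the KO and 0.935% of the WT B-like cells, a class that sets the level free RNA could give. Without thinning, the mature DC-like shares were 63.7% and 69.3% at a median of 5553.5 and 4928 UMIs per cell, and thinning left out 1 and 2 such cells and 19 and 26 B-like cells. Nr4a3 was 80.3% and 84.1% of the Nr4a UMIs in mature DC-like cells, 65.7% and 78.0% in melanoma-like cells and 9.61% and 9.06% in macrophage-like cells.

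**Figure D2:**
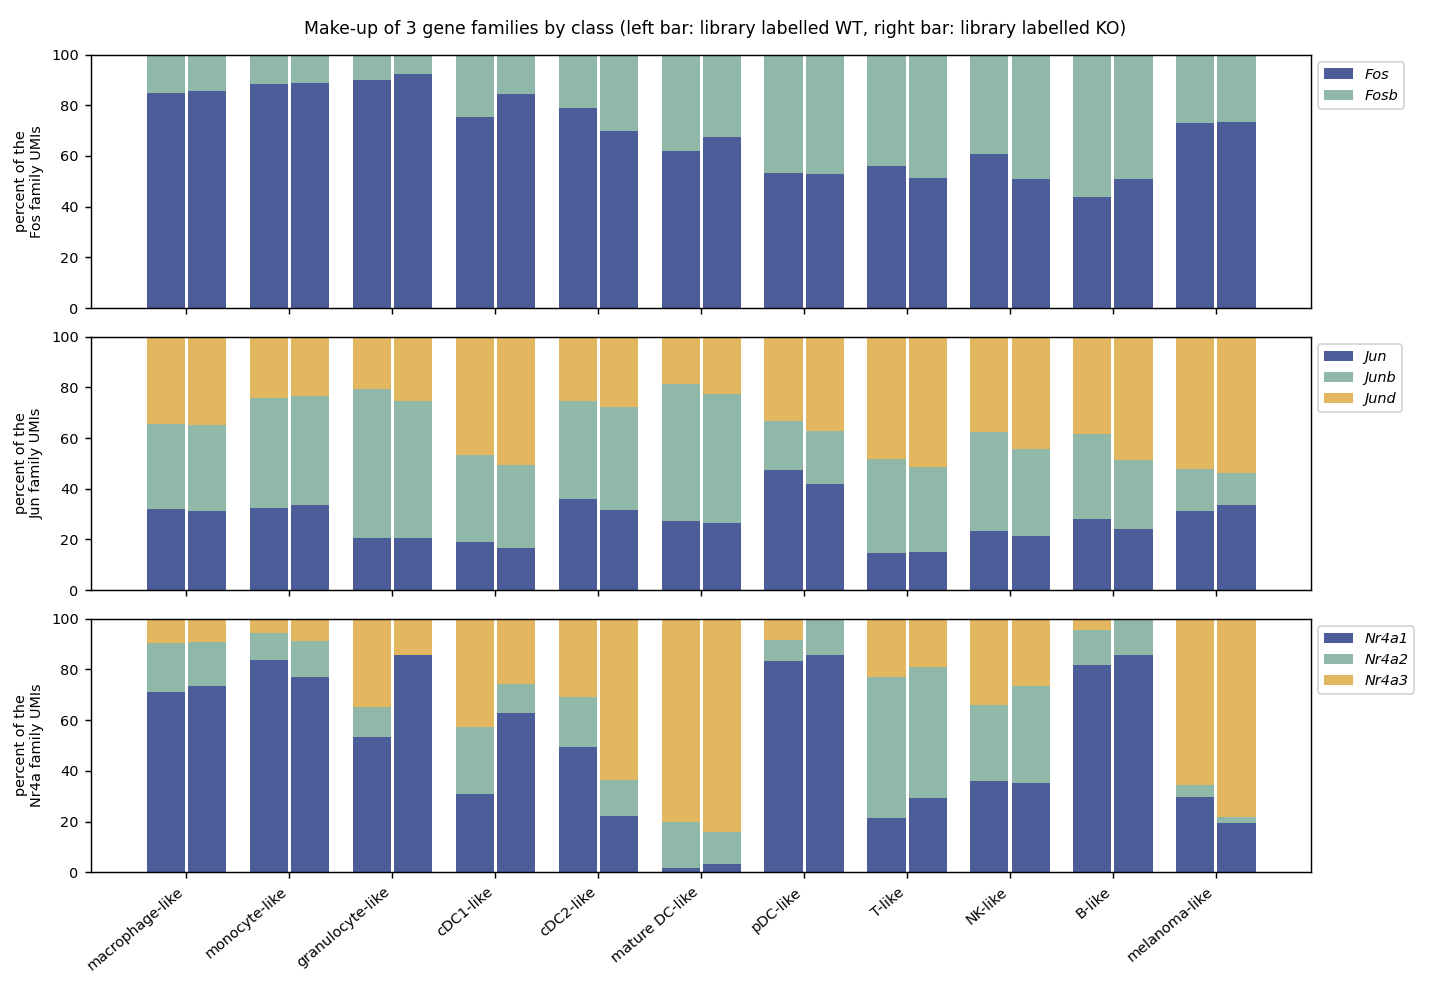
Share of the UMIs of the Fos, Jun and Nr4a families that each gene holds, in percent, by cell class. In each pair the left bar is the library labelled WT and the right bar the library labelled KO, and the bars of most pairs are alike, with the Nr4a family in granulocyte-like, cDC1-like and cDC2-like cells as exceptions. Nr4a1 fills most of the bar in monocyte-like and macrophage-like cells, Nr4a2 in T-like cells and Nr4a3 in mature DC-like cells.

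These orders are of levels relative to all RNA of a class, and classes differ in RNA per cell. Median UMIs ran from 1340.5 and 1058 in granulocyte-like to 44698 and 35652 in melanoma-like cells. On UMIs per cell, 2 of the 10 genes kept their highest class, Fosb in pDC-like and Egr1 in granulocyte-like cells. Fos was then highest in cDC1-like cells (2.20 and 1.78 UMIs per cell) and Nr4a3 in melanoma-like cells (2.95 and 4.64). Macrophage-like and monocyte-like cells were also divided by UMIs per cell, and Fos, Fosb, Jun, Junb, Jund and Egr1 were lower in each deeper bin of both classes in both libraries. Atf3 and the Nr4a genes did not all follow that order, as with Nr4a1 at 24.0, 33.9 and 18.9 CPM in macrophage-like cells labelled KO. Junb in macrophage-like cells was at 765, 481 and 270 CPM labelled WT in cells under 4000, from 4000 to 10000 and from 10000 UMIs, and at 595, 434 and 319 labelled KO.

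The comparison of the libraries asks how each gene differs between cells labelled KO and WT. Ratios are KO over WT on the log2 scale, with no pseudocount. A member counts as past the fold when it is at 50 CPM or more in either library and differs by over 1.5 times, in the 7 classes with at least 100 cells in each library. Over these classes, 11 ratios of single genes were past the fold. None was in macrophage-like cells, 2 were in monocyte-like, 1 each in granulocyte-like, T-like and melanoma-like cells and 3 each in mature DC-like and cDC2-like cells. Of all genes tested, 1.19% (melanoma-like) to 17.7% (granulocyte-like) were higher past the same fold. From 0.342% (macrophage-like) to 7.33% (granulocyte-like) were lower. The shares of each class stand beside its members below. With classes from clusters instead of gates, none of them cDC2-like, the count was 2.

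**Figure D3:**
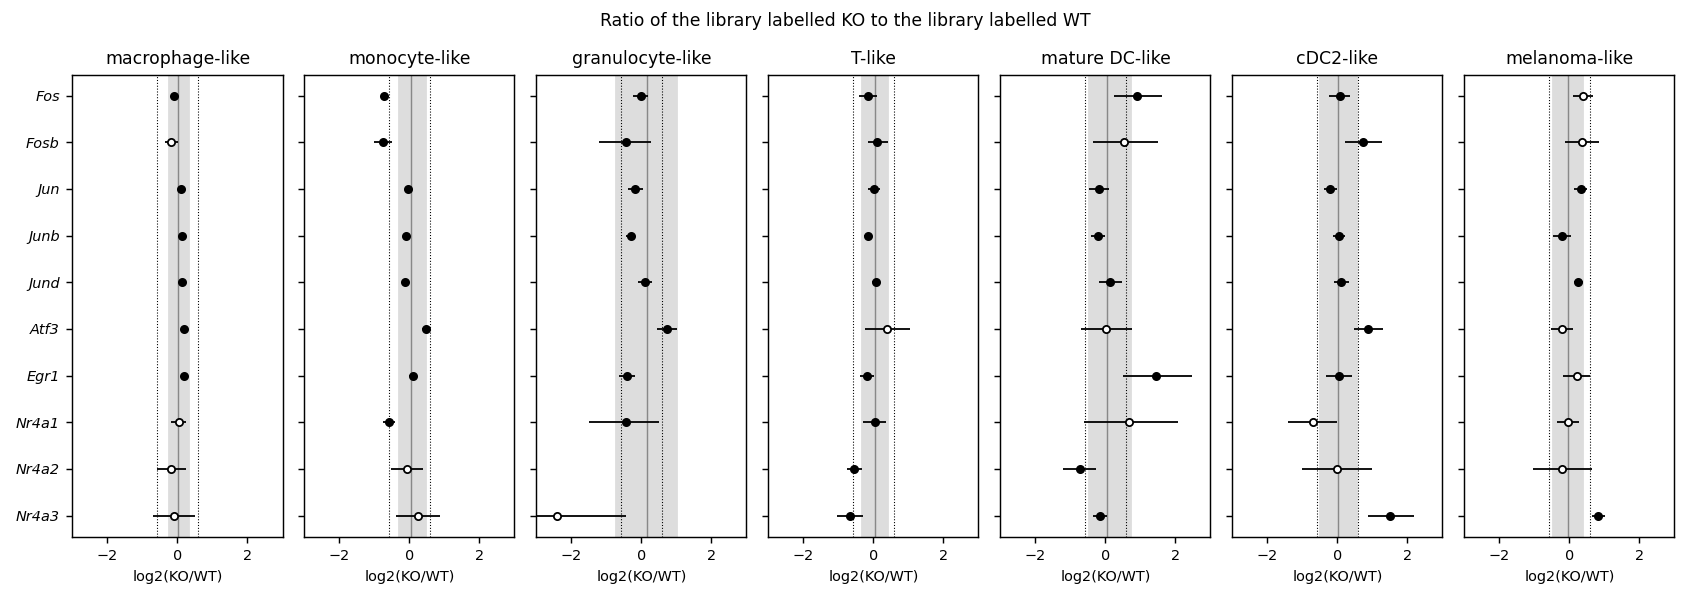
Log2 ratio of the level labelled KO to that labelled WT for each gene in 7 cell classes, with exact 95% intervals of counting error. Filled points are at 50 CPM or more in either library, dotted lines mark 1.5-fold, the grey line is the median and the grey band the 5th to 95th percentile of all genes tested in the class. Macrophage-like points lie between the dotted lines, and Fos and Fosb in monocyte-like cells lie to the left of them. Nr4a2 in granulocyte-like cells, with no UMI labelled KO, has no point.

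Macrophage-like cells, the class with most RNA under Lyz2-driven Cre, had no member past the fold when all their cells were summed. With 1417 cells labelled WT and 1923 labelled KO, the 6 members at 50 CPM or more included 0 higher and 0 lower past the fold, where 1.44% of the 2924 genes tested were higher and 0.342% lower. Atf3 (log2 ratio 0.19, 0.12 to 0.26), Egr1 (0.20, 0.10 to 0.30), Junb (0.14, 0.08 to 0.19), Jund (0.13, 0.08 to 0.18) and Jun (0.09, 0.03 to 0.14) were slightly higher labelled KO in that sum, and Fos was slightly lower (−0.11, −0.18 to −0.03). The direction depended on depth. In cells from 10000 UMIs Junb was at 270 CPM labelled WT and 319 labelled KO, but in cells under 4000 UMIs it was at 765 and 595. Jun was lower labelled KO there too, at 671 (606–742) and 507 (464–553). Jund, Atf3 and Egr1 were also lower labelled KO there, with intervals that overlapped. Under 4000 UMIs the difference was larger for Nr4a1, at 84.6 (62.6–112) and 24.0 (15.4–35.7), and Fosb, at 107 (82.1–137) and 45.0 (32.8–60.2). Jun and Junb each had the other sign in 3 alternatives, Egr1 on thinned cells (−0.05) and Atf3 with equal weight for each cluster (−0.04). Atf3 was lower in 4 of 8 clusters and higher in 4. In cluster 0, where it was highest, it was at 587 and 499 CPM (−0.23, −0.34 to −0.13), and that cluster held 212 of the 1417 macrophage-like cells labelled WT and 415 of the 1923 labelled KO. Of the sums over all cells, all 6 ratios lie within the 5th to 95th percentile of all genes, −0.23 to 0.33. The median over the 10 genes was 0.06, against 0.00 over all genes tested, and it was below 0 on the mean of per-cell values (−0.06), on thinned cells (−0.07) and with equal weight for each cluster (−0.04). Monocyte markers summed to 1367 CPM labelled WT and 2052 labelled KO in these cells, and 24.7% and 38.7% of them had a UMI of Ly6c2, a gene of classical monocytes. Among the cells with that UMI Fos was at 256 and 215 CPM, and among those without it at 156 and 140.

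Monocyte-like cells showed lower Fos and Fosb in the library labelled KO. Of 8 members at 50 CPM or more, 2 were lower past the fold and 0 higher, where 0.456% of 3072 genes tested were lower and 2.8% higher. Fos went from 449 to 270 CPM, a log2 ratio of −0.73 (−0.82 to −0.65). Fosb went from 58.1 (50.9–66.1) to 34.3 (30.6–38.3), a log2 ratio of −0.76 (−1.01 to −0.51). Nr4a1 was just inside the fold at −0.58 (−0.74 to −0.40). Atf3 was also inside it, at 0.48 (0.37 to 0.59), and the 5th to 95th percentile of all genes tested was −0.29 to 0.48. Jun (−0.04), Junb (−0.11), Jund (−0.13) and Egr1 (0.11) lay much closer to 0, so the Fos genes differed more between the libraries than the Jun genes they pair with. The median of the 10 ratios was −0.09, against 0.03 over all genes tested.

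The lower Fos of monocyte-like cells was seen in each division of the class that was made. Over the 7 clusters with at least 20 such cells in each library, Fos was lower labelled KO in 7, with log2 ratios from −1.32 to −0.27, Nr4a1 in 7 (−1.89 to −0.04) and Fosb in 6. Atf3 was higher in 5 of the 7. Cluster 5, with 163 cells labelled WT and 571 labelled KO, had Fos at 541 and 217 CPM. Cluster 4, with 283 and 524 cells and the highest Nr4a1 (261 and 240), had Fos at 651 and 532. The clusters took different shares of the 2 libraries. Cells with an Ace or Adgre4 UMI, 15.6% and 16.8% of the class, had Fos at 507 and 250 CPM (log2 ratio −1.02, −1.24 to −0.80), and the others had it at 438 and 274 (−0.68, −0.77 to −0.58).

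**Figure D4:**
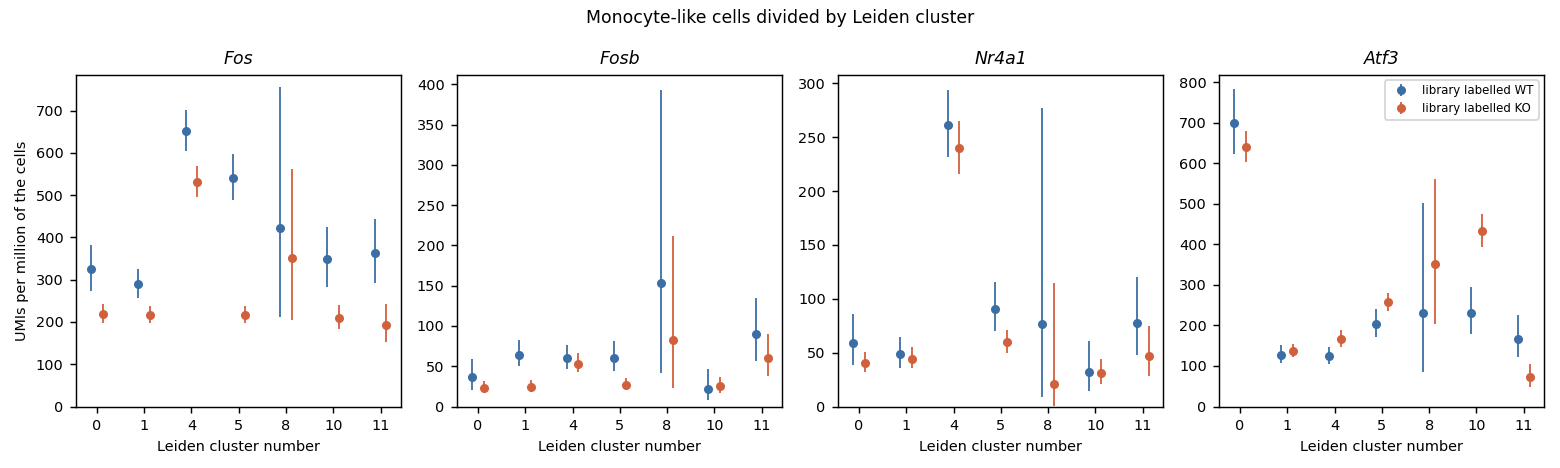
Level of Fos, Fosb, Nr4a1 and Atf3 in monocyte-like cells of each of 7 Leiden clusters, in CPM, with exact 95% Poisson intervals. Blue is the library labelled WT and orange the library labelled KO. Fos is lower labelled KO in all 7 clusters, among them cluster 5 (541 against 217 CPM) and cluster 4 (651 against 532). The wide intervals of cluster 8 rest on 21 and 32 cells.

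Fos was lower labelled KO at each depth. It was at 524, 429 and 296 CPM labelled WT in monocyte-like cells under 4000, from 4000 to 10000 and from 10000 UMIs, and at 324, 235 and 161 labelled KO. In cells thinned to 1000 UMIs, 31.3% labelled WT and 21.3% labelled KO had a Fos UMI, against 66.8% and 45.8% unthinned, at a median of 4111 and 3387.5 UMIs per cell, with 21 and 49 shallower cells left out. In granulocyte-like cells the thinned shares were 50.8% and 50.4%, with 98 and 94 cells left out. The shares were low in mature DC-like (2.97% and 3.38%) and melanoma-like cells (2.80% and 6.15%). Granulocyte markers summed to 494 CPM in monocyte-like cells labelled WT and 137 labelled KO, which is 0.279% and 0.0845% of their level in granulocyte-like cells. Macrophage markers summed to 1902 and 1723 CPM. The part of other cells' RNA in the Fos difference was not tested. Where classes came from clusters instead of gates, the log2 ratio of Fos was −0.49 and that of Fosb −0.57, short of the fold. Fos was also inside it with mixed-lineage cells kept (−0.56), and Fosb on thinned cells (−0.50) and with a stricter gate (−0.51).

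**Figure D5:**
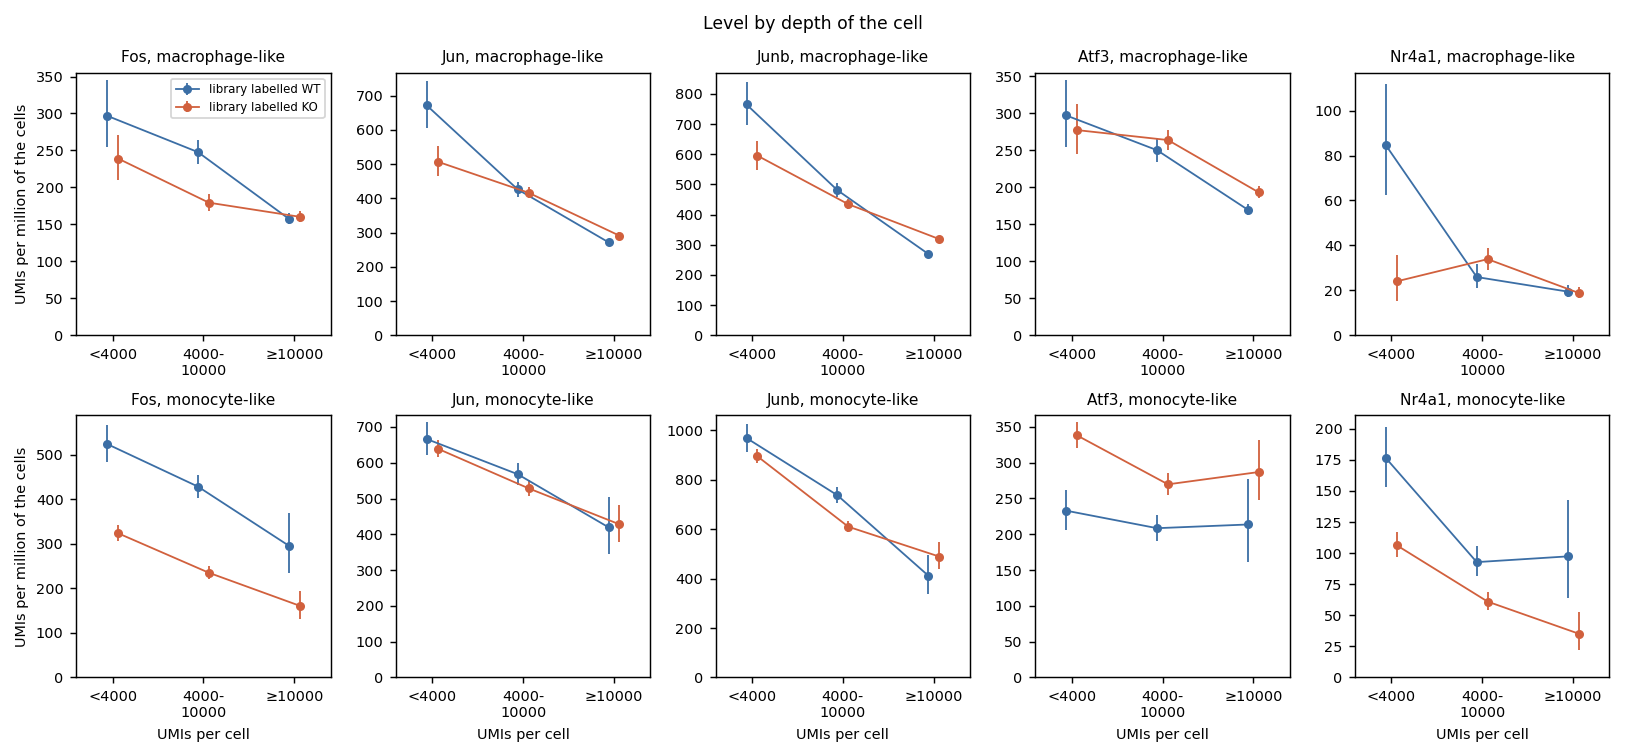
Level of Fos, Jun, Junb, Atf3 and Nr4a1 in macrophage-like (top) and monocyte-like cells (bottom) by UMIs per cell, in CPM, with exact 95% Poisson intervals. Blue is the library labelled WT and orange the library labelled KO. Levels of most genes are lower in deeper cells, and in monocyte-like cells Fos labelled KO lies below WT at each depth (324 against 524 CPM under 4000 UMIs).

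Granulocyte-like cells, the class with the highest Fos, Junb, Atf3 and Egr1, held 490 cells labelled WT and 213 labelled KO with few UMIs each. Atf3 was the 1 member of 8 that was higher past the fold, at 376 and 627 CPM (log2 ratio 0.74, 0.45 to 1.02), and 0 were lower. Among all 2660 genes tested 17.7% were higher and 7.33% lower, so 1 of 8 is not above the background of this class. With the TMM scaling of edgeR the split was 8.27% higher and 15.8% lower, since it moved the median of all genes from 0.15 to −0.09. Atf3 was higher in both clusters of granulocyte-like cells, at 234 and 461 CPM in cluster 6 and 723 and 1443 in cluster 12. Its ratio was inside the fold in 5 of 12 alternatives, 0.49 with TMM scaling among them. Junb (−0.31, −0.44 to −0.18) and Egr1 (−0.40, −0.63 to −0.18) were lower with intervals below 0, while Fos was at −0.02 (−0.24 to 0.19). Over the alternatives Junb ranged from −0.55 to 0.04, and Egr1 kept its sign. The median over the 9 genes with UMIs in both libraries was −0.31, against 0.15 over all genes. That median had the other sign with mixed-lineage cells kept, as given below. Nr4a2 had 10 UMIs labelled WT and 0 labelled KO, where a count of 0 allows up to 11.4 CPM, and Nr4a3 had 30 and 2 UMIs, a ratio of −2.41 (−5.52 to −0.44).

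T-like cells labelled KO had less Nr4a3. It was lower past the fold, at 71.5 (60.4–84.1) and 44.8 (36.9–53.9) CPM, a log2 ratio of −0.67 (−1.04 to −0.31). It was the 1 member of 9 that was lower, with 0 higher, where 0.811% of 2958 genes tested were lower and 1.49% higher. Without the cell that held most Nr4a3 in each library, 24 of 146 UMIs labelled WT and 11 of 113 labelled KO, the ratio was −0.55, inside the fold. It was −0.51 on thinned cells and −0.58 with classes from clusters, and Nr4a3 was lower in 2 of 3 clusters and higher in 1 (−0.83 to 0.48). Nr4a2 was at −0.54 (−0.77 to −0.32) and was lower in 3 of 3 clusters. Nr4a1, by contrast, was at 66.6 and 68.2 CPM, a ratio of 0.03 (−0.30 to 0.37). In the 302 and 308 cells with CD8 transcripts the ratios were −0.66 for Nr4a3 and −0.44 for Nr4a2, and these cells were 58.6% (WT) and 50.2% (KO) of the class. The median over the 10 genes was −0.07, against 0.03 over all genes. Lyz2 is not known to be active in T cells.

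Mature DC-like cells held few UMIs of most members. Of the 7 at 50 CPM or more, 2 were higher past the fold and 1 lower, where 7.67% of 2634 genes were higher and 3.15% lower (5.73% and 4.71% with TMM scaling). Fos had 26 UMIs (42.0 CPM) labelled WT and 69 (78.6 CPM) labelled KO, a log2 ratio of 0.90 (0.23 to 1.61). Egr1 had 12 and 46 UMIs, a ratio of 1.43 (0.49 to 2.49). Markers of monocytes summed to 278 CPM labelled WT and 445 labelled KO in these cells, those of macrophages to 291 and 406, of cDC1 to 56.6 and 139 and of granulocytes to 139 and 38.7, and their part in these ratios was not tested. Neither Fos nor Egr1 was past the fold on per-cell means, with the highest doublet scores removed or with classes from clusters. On thinned cells, and without the cell that held most of its UMIs, Egr1 was not past it either. Over the alternatives Fos ranged from −0.15 to 0.90 and Egr1 from −0.01 to 2.03. Nr4a2 was lower, at 133 and 79.8 CPM (−0.73, −1.21 to −0.26), and past the fold in 11 of 12 alternatives. Nr4a3, the Nr4a gene of this class, was at −0.16 (−0.36 to 0.04).

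In cDC2-like cells, dendritic cells that present antigen to CD4 T cells, 3 of 8 members were higher past the fold and 0 lower, where 4.64% of 2953 genes were higher and 3.39% lower. Nr4a3 was at 29.1 (28 UMIs) and 82.8 CPM (89 UMIs), a log2 ratio of 1.51 (0.88 to 2.18), and 25 of the 89 UMIs were in 1 cell. Atf3 was at 80.0 and 147 (0.88, 0.47 to 1.29), or 0.58 with mixed-lineage cells kept, and Fosb at 52.0 and 86.5 (0.73, 0.22 to 1.26). Markers of mature DC, the class with most Nr4a3, summed to 50.9 CPM labelled WT and 166 labelled KO in these cells. Their part in the Nr4a3 difference was not tested.

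Melanoma-like cells carried markers of the tumour line and passed the sort. Nr4a3 was the 1 member of 4 that was higher past the fold and 0 were lower, where 1.19% of 3017 genes were higher and 2.22% lower. Its level was 73.8 CPM (324 UMIs) labelled WT and 131 CPM (863 UMIs) labelled KO, a log2 ratio of 0.82 (0.64 to 1.01), and it was past the fold in 12 of 12 alternatives. A Nr4a3 UMI was found in 52.7% of 110 cells labelled WT and 70.4% of 186 labelled KO at their full depth, a median of 44698 and 35652 UMIs, and in 0.935% and 11.2% of cells thinned to 1000 UMIs, with 3 and 7 cells left out. Nr4a1 was at 33.3 and 32.3 CPM, a ratio of −0.04 (−0.35 to 0.27).

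The genes around the members were described with 5 lists. In macrophage-like cells none of the listed genes at 50 CPM or more was past the fold in either direction, which covers 9 of 23 other AP-1 and bZIP genes, 21 of 36 other early response genes, 11 of 22 MAP kinase genes, 2 of 11 calcineurin and NFAT genes and 10 of 16 heat shock genes. The median ratios were 0.05, 0.07, 0.01, −0.04 and −0.01, against 0.00 for all genes. Maf (662 and 605 CPM) and Cebpb (555 and 655), zipper factors of macrophages, were the highest of the first list, and Ddit3, a zipper factor induced by stress, had its highest ratio (0.36). In the early response list Klf2 was at 77.4 and 106 CPM (0.46), Btg1 at 404 and 508 (0.33) and Cxcl2, a neutrophil chemokine, at 230 and 177 (−0.37). Among the kinases that act on AP-1, Mapkapk2 was at 196 and 218, Mapk3 at 117 and 108, Map2k1 at 57.5 and 68.8 (0.26) and Elk3, a partner of the serum response factor, at 54.5 and 48.6 (−0.16). The calcineurin subunit Ppp3ca, which lies upstream of NFAT and Nr4a induction, was at 90.4 in both libraries. Heat shock genes, which dissociation also raises, summed to 5229 and 5087 CPM in macrophage-like cells, 5096 and 5017 in monocyte-like cells and 2923 and 2347 in granulocyte-like cells. In melanoma-like cells they summed to 10508 and 8331, with a median ratio of −0.41 and 1 of 10 lower past the fold, and in T-like cells to 5739 and 6431, with a median of 0.15. Their part in the Nr4a3 ratios of those classes was not tested.

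In monocyte-like and T-like cells the early response list alone had genes past the fold, and the genes named in the rest of this paragraph were picked after their values were seen. In monocyte-like cells, 1 of 27 other early response genes was higher past the fold and 1 lower, where 2.8% of all genes tested were higher and 0.456% lower. Egr2, a relative of Egr1, was at 33.2 and 56.3 CPM (0.76), and Cxcl2 was at 542 and 312 (−0.80). In granulocyte-like cells 8 of 28 were lower and 1 higher, where 7.33% of all genes were lower and 17.7% higher, or 15.8% and 8.27% with TMM scaling. The 8 included Cxcl2 (14800 and 5089), Nfkbia (1869 and 737), the NF-kB inhibitor, and Ccl3 (2973 and 1538), and the whole list summed to 42569 CPM labelled WT and 28058 labelled KO. In T-like cells, where 0.811% of all genes were lower and 1.49% higher, 2 of 23 were lower and 1 higher. Gadd45b (330 and 215) and Ier3 (92.6 and 60.3) were lower and Srf, the serum response factor that drives Fos and Egr1, was higher (36.3 and 55.5).

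Pairs of members were compared within cells. In cells thinned to 1000 UMIs, the share with the second gene of a pair was higher among cells with the first in 78 of 96 combinations of pair, class and library. The same count over other gene pairs was not made, and members' levels differ with depth and cluster within a class, whose part was not tested. Among T-like cells labelled KO, a combination picked after its values were seen, 43.9% (31.7–56.7) of cells with a Fos UMI had a Jun UMI against 17.6% (14.4–21.3) of the others, and 30.3% against 7.82% had Fosb. In macrophage-like cells the shares with Jun were 39.6% against 26.4% labelled WT and 32.0% against 28.6% labelled KO. Atf3 accompanied Jun in monocyte-like cells labelled KO, in 26.7% (23.9–29.7) against 16.2% (14.3–18.3). The other combinations went the other way. Among them were Fos and Jund in macrophage-like cells labelled KO, at 25.7% (20.8–31.0) against 32.9% (30.6–35.3), and Jun and Junb in granulocyte-like cells labelled KO, at 74.6% against 83.3%. No cell with a Nr4a1 UMI had a Nr4a3 UMI in macrophage-like or monocyte-like cells of either library, against 0.148% to 0.643% of the other cells. Cells are not replicates, so these shares carry no p.

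Genes with a pattern most like each member's were sought over the 22 points of 11 classes and 2 libraries, by the Pearson correlation of log2(CPM + 1) among 6461 genes. Fos was most like Cd300lf (0.907), Irak2 and Svil, and Junb like Sorl1 (0.968), 2310001H17Rik and Zfp36, all with their highest level in granulocyte-like cells. Atf3 was most like Card19 (0.941), Cstb and Tarm1, and Egr1 like Ssh2 (0.908), Ube2d3 and Plk3. Jun was nearest to Sertad1 (0.928) and Ccnl1, Fosb to Brd2 (0.925), S1pr4 and Pecam1, and Jund to Il16 (0.940), Klf2 and Cd37. The Nr4a genes had weaker matches, Stk10 (0.808) for Nr4a1, Osbpl3 (0.826) for Nr4a2 and Vsig10 (0.869) for Nr4a3. Among the members, Fosb and Jund (0.871), Fos and Egr1 (0.849) and Junb and Egr1 (0.825) were closest, and Jund and Nr4a3 ran most against each other (−0.54). The points share libraries and cell types, and no p is given.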

How the data were processed

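Libraries of live CD45+ cells were made with 10x Chromium 3′ v3 reagents. The authors aligned reads to mm10 with Cell Ranger (version 4.0.0 per the file headers) and deposited raw UMI counts, 100016286 in total over 31053 genes and 14341 barcodes. Each barcode's library came from a deposited table and its group from the labels. Depth was 45963969 UMIs labelled WT and 54052317 labelled KO, and counting intervals follow from it.

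The study's filter (at least 200 genes, at most 10% mitochondrial UMIs) was applied. Each cell was gated by how many markers of a class had a UMI (for example 5 of 8 for macrophage-like and 3 of 7 for monocyte-like cells), and cells past the gates of 2 lineages were set aside as likely doublets, since the automatic threshold of Scrublet in scanpy 1.11.5 marked 1 cell in each library. UMIs were summed per class and library and divided by the class total. Clusters came from leidenalg 0.10.2 at resolution 1, with the members and listed genes left out. TMM factors came from edgeR 4.0.16. The ratio code was tested on simulated data. With 1 library per genotype no test was run. CD8 or CD4 cells were T-like cells with a UMI of Cd8a or Cd8b1, or of Cd4 alone.

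Named genes were all 10 members, Mettl3, the 3 highest and the 3 most different genes of each list in macrophage-like cells, and the 3 genes most like each member. Some genes that this rule names are not reported here. The members and lists were chosen with earlier results of these data known, and gate thresholds were set after the data were looked at. Alternatives were other scalings, filters, doublet rules, gates, clusters as classes, thinning to 1000 UMIs and other low-count filters. UMIs per cell and doublet removal for co-detection were chosen after seeing the data.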

Additional observations from a re-analysis of the deposited data

Results flagged for a closer look

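Log2 ratios of the same gene pointed in opposite directions in different classes, with counting intervals that lie apart. These differences between classes were not tested, as there was 1 library per genotype. Fos was at 0.90 (0.23 to 1.61) in mature DC-like and −0.73 (−0.82 to −0.65) in monocyte-like cells. The first ranged from −0.15 to 0.90 over the alternatives and was inside the fold on per-cell means, without the highest doublet scores and with classes from clusters. Fosb was at 0.73 (0.22 to 1.26) in cDC2-like and −0.76 (−1.01 to −0.51) in monocyte-like cells. Nr4a3 was at 1.51 (0.88 to 2.18) in cDC2-like, 0.82 (0.64 to 1.01) in melanoma-like and −0.67 (−1.04 to −0.31) in T-like cells.

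Cells outside the classes also held the 10 genes, well above the limit that a count of 0 allows. In the 865 cells labelled WT and 1339 labelled KO that passed no gate, with a median of 1192 and 1137 UMIs, their summed level was 3532 and 3243 CPM. In the 774 and 742 cells with markers of 2 or more lineages, with a median of 14296.5 and 11517.5 UMIs, it was 1742 and 1768 CPM.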

How the results depend on the processing

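No paired analysis was possible because there was 1 library per genotype. For the same reason no library could be left out. The median ratio of the members in granulocyte-like cells, −0.31, moved to −0.55 with TMM scaling, whose factors were 0.919 and 1.09, to −0.13 on thinned cells, to 0.032 with mixed-lineage cells kept and to −0.088 with a stricter gate. The count of 11 members past the fold was 2 with classes from clusters, 1 of them shared with the 11, and 9 to 16 under the other alternatives. No cluster was named cDC2-like, so the 3 cDC2-like ratios past the fold could not be counted with classes from clusters. The cause of the rest of that fall was not tested. The number of genes that kept their highest class was 2 on UMIs per cell and 9 under each of the other 3 alternatives. Of 507 ratios of single members in 4 classes, 56 moved beyond the counting interval and 50 had the other sign. Medians in monocyte-like cells kept their sign throughout, and that in T-like cells was 0.00 on per-cell means and 0.04 on thinned cells. The share of all genes past the fold depends on the low-count filter: from 1.44% higher and 0.342% lower in macrophage-like cells it went to 15.8% and 12.2% with none, and from 2.8% and 0.456% to 19.3% and 14.3% in monocyte-like cells. Over the 7 classes it was 15.8% to 29.0% higher and 12.2% to 29.9% lower with none, and the count of members past the fold was then 14. Pairs of member and class with a lower share of cells labelled KO were 24 of 40 thinned and 32 of 40 unthinned, and co-detection was higher in 80 of 96 combinations without the highest doublet scores. Depth limits the low values most, such as Nr4a2 and Nr4a3 in B-like and pDC-like cells.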

Other observations

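The 4 classes with fewer than 100 cells in a library were left out of the count past the fold. In cDC1-like cells (92 labelled WT and 74 labelled KO) Atf3 was at 46.4 and 127 CPM, a log2 ratio of 1.46 (0.95 to 1.99). Fosb was at 65.1 and 29.4 (−1.15, −1.89 to −0.46) and Nr4a2 at 28.6 and 4.90 (29 and 4 UMIs). Nr4a3 had 47 and 9 UMIs there, 20 of the 47 in 1 cell. In pDC-like cells (72 and 86) Jun was at 1176 and 904 (−0.38, −0.63 to −0.13) and Fos at 343 and 238 (−0.53, −1.01 to −0.05). In NK-like cells (70 and 166) Egr1 was at 256 and 144 (−0.84, −1.43 to −0.25). In B-like cells (126 and 76) Jund was at 972 and 1417 (0.54, 0.23 to 0.85). The 5th to 95th percentile of all genes tested was −0.91 to 0.97 in pDC-like and −0.95 to 1.05 in NK-like cells. It was −1.35 to 1.43 in B-like and −0.48 to 0.62 in cDC1-like cells. The pDC-like, NK-like and B-like ratios named here lie within it.

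T-like cells with a Foxp3 UMI, the transcript of regulatory T cells, numbered 27 labelled WT and 19 labelled KO. They held 17 and 1 UMIs of Nr4a2 and 18 and 11 of Nr4a1. Their median depth was 4109 and 7753 UMIs per cell, against 2441 and 2080 in all T-like cells. The 66 T-like cells labelled WT with CD4 transcripts held 3 UMIs of Nr4a2. The part of other cells in the count of 17 was not tested.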
